A study of Mus musculus with 22 samples.

Results

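The genes described here build the cornified envelope, the protein shell that replaces the plasma membrane of dying squamous cells. They were chosen by name from the mouse annotation: every Sprr and Lce gene, together with Lor, Ivl, Flg, Flg2, Hrnr, Rptn, Tchh, Tchhl1, Crct1 and Cnfn. That rule gave 48 genes, of which 44 had a probe on the array. Of these, 42 rose well above background on 2 or more of the 22 arrays. The 42 were set against all 17404 genes tested. They comprise 10 Sprr2 genes, 3 other Sprr genes, 21 Lce genes, 4 fused-type genes (Flg2, Hrnr, Rptn and Tchh) and the 4 others Lor, Ivl, Crct1 and Cnfn. Sprr4 and Tchhl1 were well above background on 0 arrays, and no probe matched Sprr2a1, Sprr2a3, Sprr2c-ps or Flg. Of the 42, 41 lie in the epidermal differentiation complex on mouse chromosome 3, and Cnfn lies on chromosome 7 at 25367616 to 25369724 (GRCm38.p6).

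In stratified epithelia, transglutaminases crosslink loricrin, involucrin and the small proline-rich (SPRR) and late cornified envelope (LCE) proteins beneath the membrane of cells that leave the basal layer. The genes sit side by side in one chromosomal cluster and are switched on late in squamous differentiation. Normal urothelium does not cornify, and cornified envelope genes are used as markers of squamous differentiation in bladder tumours.

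RNA was measured on 1-colour Agilent arrays in 8 groups of mice, all 8 months old, in a study of Trp53 mutation in bladder cancer induced by N-butyl-N-(4-hydroxybutyl)nitrosamine (BBN). The 3 normal mice were wild type and received neither tamoxifen nor BBN. The other 7 groups drank BBN for 24 weeks from 2 months of age and are labelled bladder tumor. The Krt5-Cre group (n = 2, Krt5-CreERT2; LSL-RFP) and the Upk2-Cre group (n = 2, Upk2-CreERT2; LSL-RFP) carry a tamoxifen-inducible Cre and a reporter with no Trp53 allele, and received tamoxifen. In the mutant groups, given tamoxifen too, the same Cre and reporter are joined by 1 mutant Trp53 allele: Krt5-Cre R270H (n = 3, Trp53R270H/+), Krt5-Cre R172H (n = 4, Trp53R172H/+), Upk2-Cre R270H (n = 2) and Upk2-Cre R172H (n = 3). The Trp53 het group (n = 3) has Trp53+/- in its titles and Trp53R270H/+ as its genotype, with no Cre and no tamoxifen. The Krt5 promoter drives Cre in basal cells and the Upk2 promoter in uroplakin-expressing cells, so a tumour may hold cells that never recombined. The normal samples are labelled as urothelium, while the extraction protocol speaks of whole bladders, and it cannot be told apart here whether a gene is low because fewer cells of a type were present or because each held less RNA.

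Several arrays stand apart or go against their labels. The 19 BBN arrays carry 17 animal codes, since Upk2-Cre 1 and 2 share one and Trp53 het 1 and 2 share another. Upk2-Cre 1 and 2 differed in their sex-linked transcripts. Xist was well above background on Upk2-Cre 1 only, and the Y-linked genes on Upk2-Cre 2 only. On 11 arrays, 3 normal and 8 BBN, the sex-linked transcripts went against the sex label. The arrays were read on 2 scanner models: one read 11 arrays with 42.4 to 57.2% of spots well above background, and the other read the remaining 11, all 3 normal arrays among them, with 56.3 to 63.2%. All R270H arrays came from the first scanner and all Upk2-Cre R172H arrays from the second, so for those groups allele and scanner overlap. Krt5-Cre R172H 3 was the lowest of the 19 BBN arrays for 28 of the 42 genes. Nothing in the labels beyond the animal codes says how samples were drawn, and p-values measure the spread between these samples only.

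Levels are log2 of the array's background-subtracted signal relative to its 75th percentile, so a level of 0 equals that percentile and 1 unit is a doubling. Levels of different genes come from different probes and are not compared. A gene was called at an adjusted p of 0.05 or less in limma, with Benjamini-Hochberg adjustment over all 17404 genes. Where a gene was not well above background on any normal array, its fold is a lower bound, set against the dimmest signal that was well above background on those arrays and written as "at least".

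Promoter sequence was available from RefSeq (GRCm38.p6) for 38 of the 42 genes, and 4 promoters are shown because their genes behaved differently in these samples. Lor and Sprr2d rose in the BBN bladders, Sprr2b did not pass the test and Ivl fell. Each run is the 250 bases before the transcript start used in the RefSeq promoter table, 5′ to 3′ on the gene's strand, with TGANTCA (the AP-1 type element) and TATAAA (the TATA box) in capitals. The windows lie at chr3:92083143-92083392 on the minus strand for Lor, chr3:92573736-92573985 on the minus strand for Ivl, chr3:92338890-92339139 on the plus strand for Sprr2d and chr3:92316455-92316704 on the plus strand for Sprr2b. For Ivl that start lies inside the annotated gene, so part of its window overlaps the gene.
Lor: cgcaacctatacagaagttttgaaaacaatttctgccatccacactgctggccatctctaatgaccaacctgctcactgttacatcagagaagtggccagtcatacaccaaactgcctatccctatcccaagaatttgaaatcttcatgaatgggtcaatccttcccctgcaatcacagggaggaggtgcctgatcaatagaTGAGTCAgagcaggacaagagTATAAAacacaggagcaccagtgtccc
Ivl: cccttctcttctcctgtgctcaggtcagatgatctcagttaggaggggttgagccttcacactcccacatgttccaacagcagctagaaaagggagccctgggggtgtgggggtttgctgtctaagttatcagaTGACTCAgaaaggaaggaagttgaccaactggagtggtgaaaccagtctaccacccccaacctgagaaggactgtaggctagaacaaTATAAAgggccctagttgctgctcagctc
Sprr2d: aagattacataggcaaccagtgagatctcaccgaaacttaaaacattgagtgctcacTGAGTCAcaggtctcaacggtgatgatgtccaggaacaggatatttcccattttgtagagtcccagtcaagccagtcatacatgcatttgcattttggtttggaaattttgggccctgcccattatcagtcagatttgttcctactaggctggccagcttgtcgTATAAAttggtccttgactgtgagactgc
Sprr2b: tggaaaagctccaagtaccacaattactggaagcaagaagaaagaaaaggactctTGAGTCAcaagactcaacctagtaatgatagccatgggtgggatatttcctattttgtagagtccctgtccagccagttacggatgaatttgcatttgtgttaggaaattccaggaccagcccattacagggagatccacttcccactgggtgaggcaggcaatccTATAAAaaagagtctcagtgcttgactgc

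The motifs were searched on both strands of all 32851 promoters in the table; TGANTCA can share letters with CACCC, and TATAAA with neither. TGANTCA was present in 13 of the 38 envelope gene promoters (34.2%), against 6.75% of all promoters. It was found in 7 of 8 Sprr2 promoters, in 0 of 13 Lce1 promoters and in 0 of 6 Lce3 promoters. TATAAA was present in 18 of 38 (47.4%), against 12.4% of all promoters. CACCC, the core bound by Krüppel-like factors, was present in 16 of 38 (42.1%), against 52.0% of all. The AP-1 type element did not separate the genes that rose from those that did not: it stood in 9 of the 32 promoters of genes called higher in the BBN bladders and in 4 of the 6 others, those of Sprr2b, Sprr2k, Sprr1a and Ivl. The 8 Sprr2 promoters resembled one another at 45.8 to 89.3% identity over 28 pairs (median 64.7%), and Sprr2b and Sprr2d, whose levels differed in behaviour, were 64.6% identical. A match describes these letters only and is no evidence of binding.

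BBN-treated bladders had far more RNA of most envelope genes than untreated ones, while Ivl fell and a handful of Sprr genes did not pass the test. With the 7 BBN groups weighted equally against the normal group, 35 of the 42 genes were higher, 1 was lower and 6 did not pass; among all genes 23.7% were higher, of 42.7% called in either direction. The median difference of the 42 genes was 5.37, against 0.13 over all genes. These counts are a description, because 25 of the 42 were well above background on no normal array and could pass the filter only through BBN arrays. Among the 14 genes well above background on all 22 arrays, 8 were higher and 1 lower, with a median of 1.81. The 19 BBN arrays lay wholly above the 3 normal arrays for 19 genes and wholly below for 1 (13.6% and 12.0% of all genes). By family, 6 of 10 Sprr2 genes, 2 of 3 other Sprr genes, 20 of 21 Lce genes and 4 of 4 fused-type genes were higher.

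**Figure D1:**
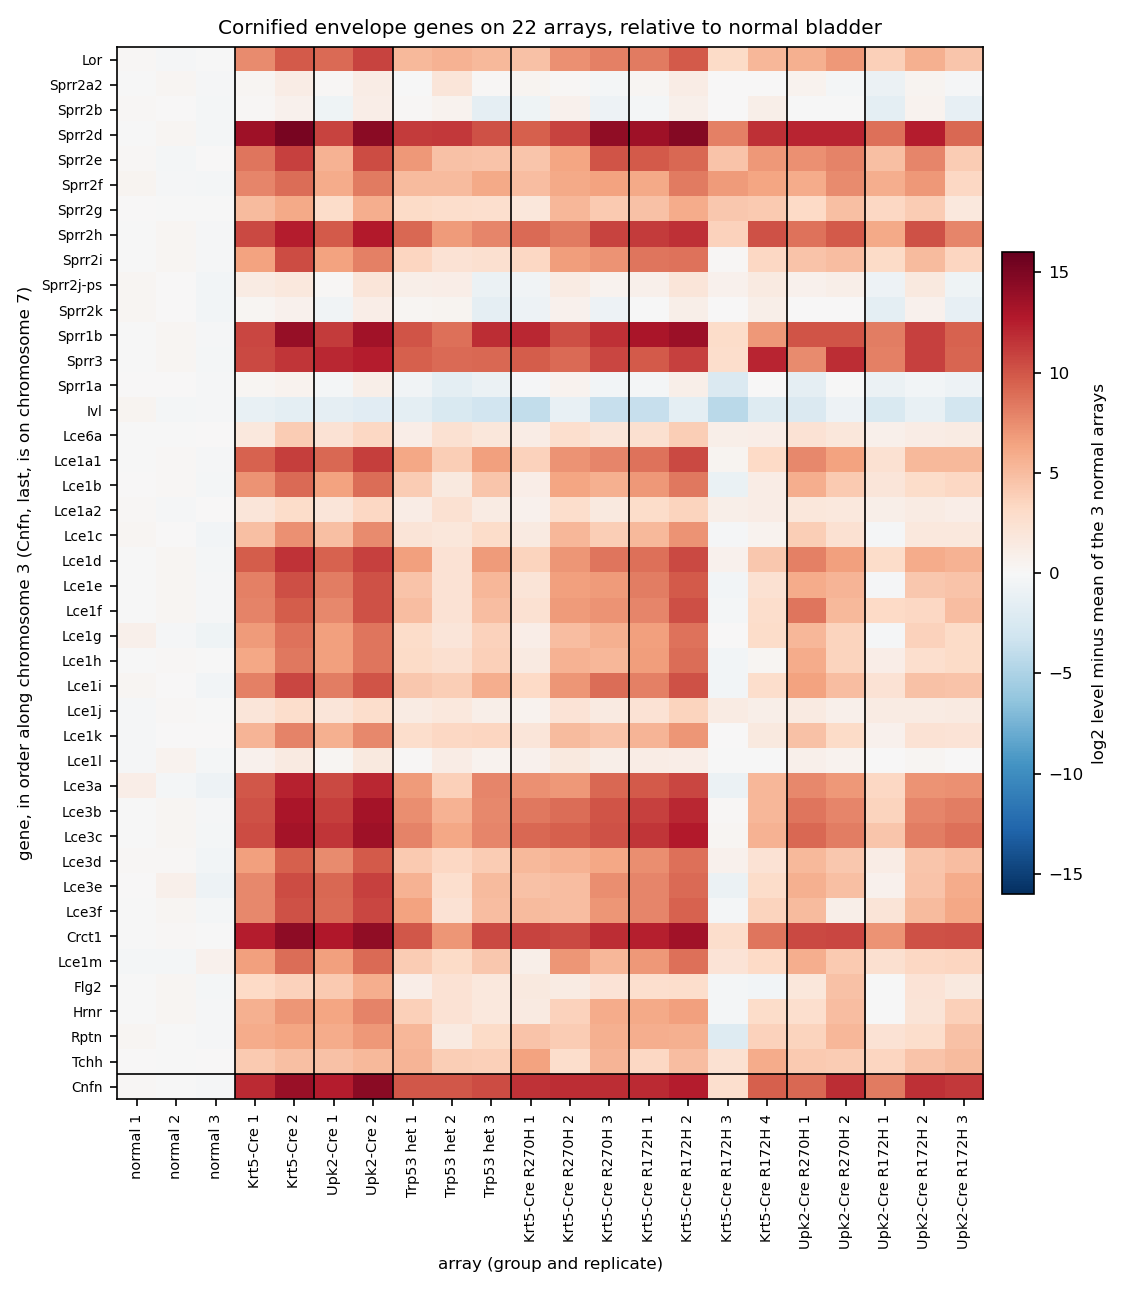
Level of the 42 envelope genes (rows) on the 22 arrays (columns, by group), as log2 relative to the array's 75th percentile, drawn as the difference from the mean of the normal arrays. Most rows are higher on the BBN arrays, Ivl is lower, and Krt5-Cre R172H 3 is paler than its group.

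The scanner bears on this comparison, since all normal arrays came from one model. The normal arrays also sat on a slide of their own, with every BBN array on other slides. Slide and BBN treatment therefore cannot be told apart in any comparison with normal bladder. On the scanner of the normal arrays alone the median was 4.58. That fit held no R270H array and only 1 array each of Krt5-Cre, Upk2-Cre and Trp53 het, so no calls are given. With scanner as a block 27 of the 42 genes were higher and the median was 3.71. With normexp background correction the median was 3.09 and 35 genes were higher.

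Loricrin, the main structural protein of the epidermal envelope, showed the pattern in a probe that was well above background on every array. Lor (chromosome 3, 92080271 to 92083142) had levels of -2.97, -3.31 and -3.18 in the normal bladders. It reached 4.41 and 6.66 in Krt5-Cre, 5.92 and 7.65 in Upk2-Cre, and 2.03, 2.36 and 2.04 in Trp53 het. In the mutants it was 1.59, 4.19 and 4.85 in Krt5-Cre R270H, 5.10, 6.65, -0.12 and 2.11 in Krt5-Cre R172H, 2.49 and 3.77 in Upk2-Cre R270H, and 0.70, 2.52 and 1.27 in Upk2-Cre R172H. Every BBN array was above every normal array, and the Upk2-Cre controls were above all Upk2-Cre mutants. The rise was 6.88 on the log2 scale (SE 0.98, limma adjusted p = 4.85e-05). It was 6.12 on the scanner of the normal arrays and 5.32 with scanner as a block.

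Involucrin, a scaffold protein laid down early in envelope assembly, went the other way. Ivl (chromosome 3, 92570899 to 92573790) had levels of 4.05, 3.32 and 3.42 in the normal bladders. Over the 19 BBN arrays the lowest was -0.67, the median 1.48 and the highest 2.74. No BBN array reached the lowest normal one. The fall was -2.15 (SE 0.59, limma adjusted p = 0.00799). By group it passed the test in Krt5-Cre R270H (-2.93), Trp53 het (-2.39), Upk2-Cre R172H (-2.20) and Krt5-Cre R172H (-2.90). In Krt5-Cre (-1.41), Upk2-Cre (-1.64) and Upk2-Cre R270H (-1.58) limma's adjusted p was 0.275, 0.161 and 0.207. Adding the labelled sex to the fit, the change over all BBN groups was -1.72 and limma's adjusted p was 0.0566. That label went against the sex-linked transcripts on 11 arrays, all 3 normal ones among them, so this fit may not adjust for sex. Without normal 1 the change was -1.92 and limma's adjusted p was 0.055. Ivl was well above background on every normal array, unlike 25 of the 42 genes.

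Cornifelin and Crct1, small proteins associated with cornified cells, were not well above background on any normal array. Cnfn was between -6.10 and -5.80 in the normal bladders. Its BBN levels had a lowest value of -3.23 in Krt5-Cre R172H 3, a median of 5.69 and its highest value in Upk2-Cre 2. The groups did not overlap. Cnfn was at least 1568-fold higher (log2 change 11.19, SE 1.33, limma adjusted p = 9.28e-06). Crct1 was between -7.41 and -7.16 in normal bladders and between -4.50 and 6.95 over the BBN arrays, with a median of 3.31. That put it at least 509-fold higher (log2 change 10.92, SE 1.42, limma adjusted p = 2.08e-05), again with Krt5-Cre R172H 3 at the bottom and no overlap.

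**Figure D2:**
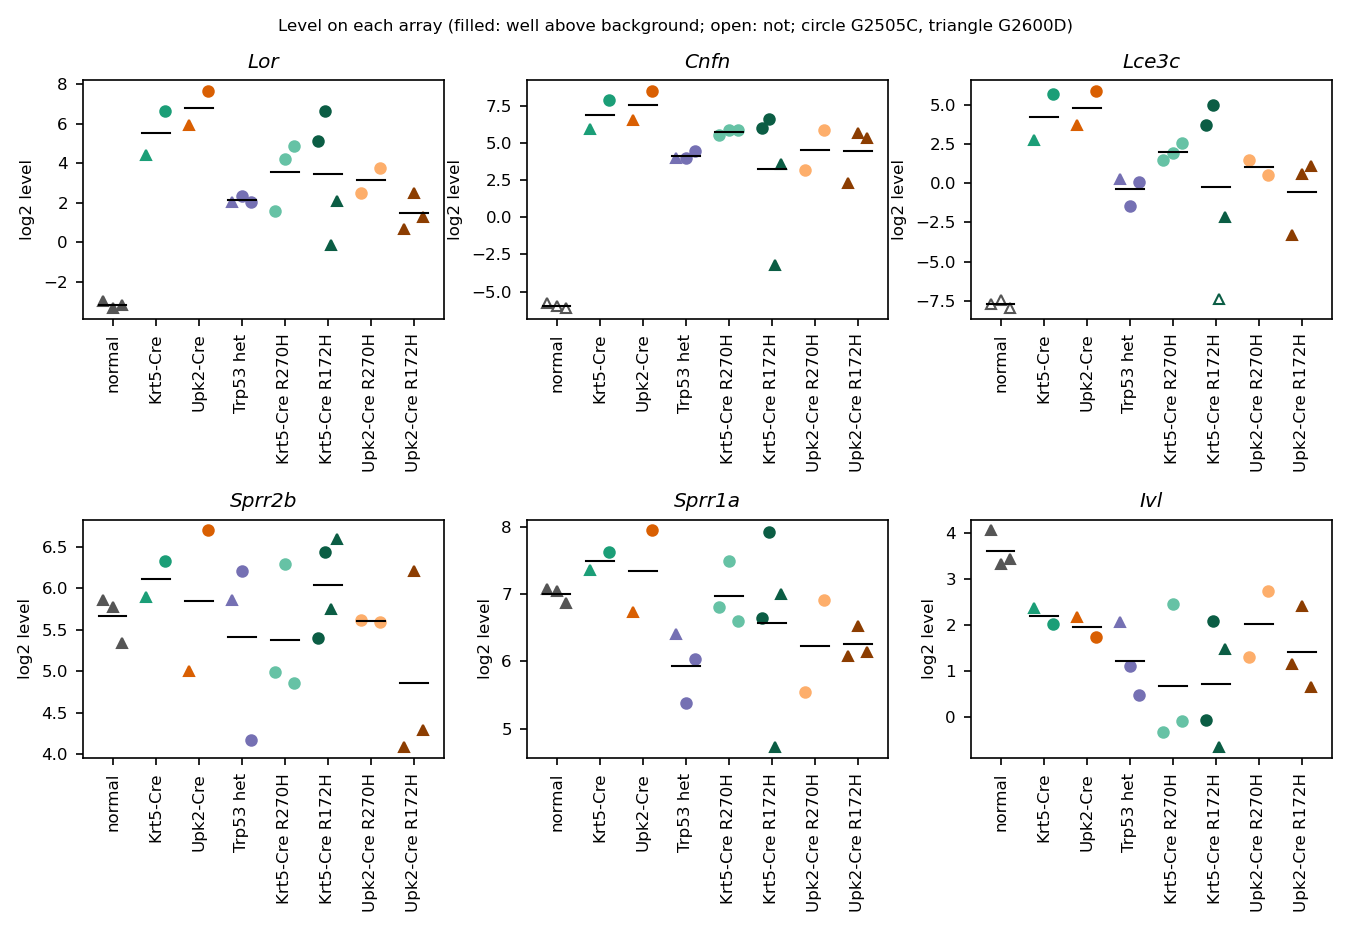
Level on each array, as log2 relative to the array's 75th percentile, for Lor, Cnfn, Lce3c, Sprr2b, Sprr1a and Ivl, by group. Points are arrays (filled where well above background, shaped by scanner model) and horizontal bars are group means. Lor lies between -3.31 and -2.97 in the normal group and between -0.12 and 7.65 in the BBN groups, while Ivl is above all BBN arrays in the normal group.

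The Sprr2 genes, whose products are short proline-rich bridges between envelope proteins, rose for 6 of 10 members, and the other 4 did not pass the test. Sprr2d (chromosome 3, 92339140 to 92340873) was at -7.71, -7.45 and -7.96 in normal bladders. On the BBN arrays its lowest level was 0.30, its median 3.99 and its highest 7.52. That made it at least 808-fold higher (log2 change 11.97, SE 1.14, limma adjusted p = 1.12e-06). Sprr2f, well above background everywhere, was at -0.45, -0.99 and -1.11 in normal bladders and between 2.47 and 8.08 over the BBN arrays, with a median of 5.21. Its change was 6.53 (SE 0.64, limma adjusted p = 1.58e-06), and no arrays overlapped. Sprr2h was at least 167-fold higher and Sprr2e at least 56.8-fold higher. Sprr2i was at least 10.6-fold higher, and Sprr2g changed by 4.06 (SE 0.65).

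The 4 that did not pass were Sprr2a2, Sprr2b, Sprr2k and the pseudogene Sprr2j-ps. Sprr2a2 was at 7.98, 8.36 and 7.95 in normal bladders and between 7.15 and 10.02 over the BBN arrays, with a median of 8.34. Its difference was 0.38 (SE 0.38, limma adjusted p = 0.441), and its other probes gave 0.21 and -1.88. Sprr2b (chromosome 3, 92316705 to 92318085) was at 5.86, 5.77 and 5.34 in normal bladders and between 4.08 and 6.70 over the BBN arrays, with a median of 5.75. The BBN range spanned the normal levels for both genes. The difference for Sprr2b was -0.05 (SE 0.48, limma adjusted p = 0.937). That for Sprr2k was 0.003 (SE 0.49, limma adjusted p = 0.997), with normal levels of 5.05, 4.74 and 4.32 against a BBN range of 3.10 to 5.75. The signs of Sprr2a2, Sprr2b and Sprr2k turned under other processing. Sprr2b and Sprr2k tracked each other at r = 0.994 over 22 arrays and may share signal between near-identical copies.

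Of the other Sprr genes, Sprr1b and Sprr3 rose while Sprr1a did not pass. Sprr1b, a bridging protein and a marker of squamous change in airway and other epithelia, was at -7.66, -7.39 and -7.90 in normal bladders. Its BBN levels ran from -4.72 through a median of 3.02 to 6.24. It was at least 346-fold higher (log2 change 10.69, SE 1.52, limma adjusted p = 4.89e-05), and its other probe rose as well. Sprr3, abundant in oral and oesophageal epithelium, ran from -4.88 through 2.17 to 4.88 on the BBN arrays against -7.91 to -7.39 in normal bladders. It was at least 222-fold higher (log2 change 10.06, SE 1.27, limma adjusted p = 1.58e-05). Neither overlapped the normal arrays, and Krt5-Cre R172H 3 was the lowest BBN array in both. Sprr1a was already high, at 7.07, 7.05 and 6.87 in normal bladders, and ran from 4.72 through 6.65 to 7.95 on the BBN arrays. Its difference was -0.31 (SE 0.46, limma adjusted p = 0.598), and the sign turned with a covariate for sex (0.13 with the label).

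Of 21 late cornified envelope genes, 20 were higher in the BBN bladders. In the barrier, LCE proteins are added in the outermost living layers. All 6 Lce3 genes with a passing probe were higher, with a median of 7.05, and 13 of 14 Lce1 genes were higher, with a median of 4.88. These medians are not compared, since 5 of the 6 Lce3 genes and 10 of the 14 Lce1 genes were not well above background on any normal array. Lce3c (chromosome 3, 92944486 to 92945730) had the widest spread of the set, with normal levels of -7.70, -7.43 and -7.94 and BBN levels from -7.38 in Krt5-Cre R172H 3 through a median of 1.46 to 5.87 in Upk2-Cre 2. It was at least 123-fold higher (log2 change 9.24, SE 1.67, limma adjusted p = 0.000402). In Krt5-Cre R172H 3 it stood barely above the normal arrays. Lce3b, Lce3c and their probes tracked each other at r = 0.999, so they may report shared signal. Lce3d, above background on every array, was at -3.38, -3.34 and -3.93 in normal bladders and ran from -2.90 through 1.59 to 6.24 on the BBN arrays (log2 change 5.61, SE 1.22, limma adjusted p = 0.0017).

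Lce1a2, well above background on every array, changed by 1.92 (SE 0.50, limma adjusted p = 0.00573). Its normal levels of 0.40, 0.08 and 0.31 lay below a BBN range of 0.93 to 3.86, with a median of 1.91. With scanner as a block its difference was 1.07 and no longer passed. The remaining Lce genes called higher included Lce1d (at least 36.7-fold), Lce1a1 (at least 31.8-fold) and Lce3a (at least 81.6-fold), chosen here after their values were seen. Lce6a changed by 2.11, but its other probes gave 3.64 and -0.80. Lce1l did not pass (0.73, SE 0.32, limma adjusted p = 0.0775).

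The fused-type genes, which join a calcium-binding S100 domain to long repeats and organise keratin filaments in cornifying cells, all passed the test, 2 of them from probes that were not well above background on any normal array. Tchh, known from hair follicle and tongue, had normal levels of -3.94, -4.13 and -4.01 against a BBN range of -1.65 to 2.40, a median of 0.52 and no overlap (log2 change 4.49, SE 0.66, limma adjusted p = 6.88e-05). Rptn, an envelope matrix protein, changed by 4.52 (SE 1.14, limma adjusted p = 0.00477), although in Krt5-Cre R172H 3 it was at -7.01, below the normal levels of -4.69, -5.08 and -5.15. Its BBN median was -0.23 and its highest level 1.91. Hrnr was at least 4.21-fold higher (log2 change 4.19, SE 1.15, limma adjusted p = 0.00829), with a BBN range of -7.88 to 0.39 around a median of -3.67 against -7.76 to -7.24 in normal bladders. Flg2 was well above background on only 4 arrays, all BBN, with a BBN range of -7.96 to -1.70 and normal levels of -7.55, -7.26 and -7.79. Its change was 2.49 (SE 0.69, limma adjusted p = 0.00818). Most of its BBN values were near background too, so no fold is given. Its other probe, well above background on 0 arrays, gave 1.44. Hrnr (3.01) and Flg2 (1.43) no longer passed with scanner as a block.

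**Figure D3:**
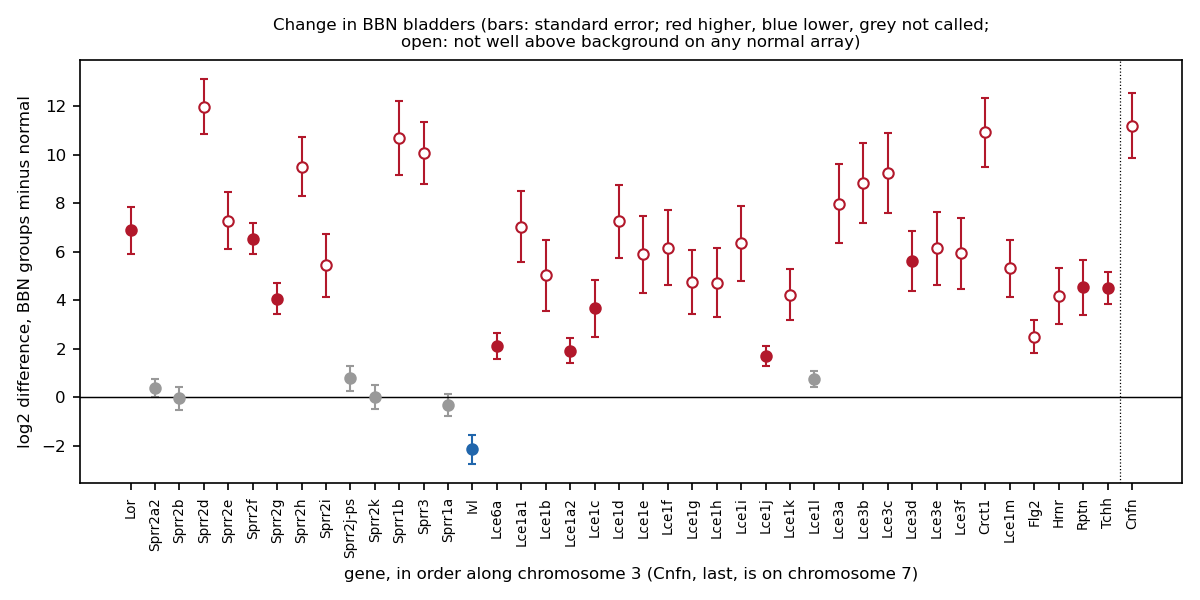
Log2 difference between the 7 BBN groups and the normal group for each of the 42 envelope genes, with its standard error, in order along chromosome 3 with Cnfn last. Red points were higher and blue lower at limma's adjusted p of 0.05, grey ones did not pass, and open points were not well above background on any normal array. Of the 42 genes, 35 are red, Ivl is blue and 6 are grey.

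The genes that work with the envelope proteins moved with them in part. Of 4 crosslinking enzymes 2 were higher, Tgm1 by 7.28 (SE 1.05) and Tgm5 by 2.34 (SE 0.69), while Tgm2 (-0.95) and Tgm3 (-0.02) did not pass. Of 10 scaffold and cornified cell proteins 7 were higher (median 3.75), among them Cdsn, the corneodesmosome adhesive protein, at least 105-fold. Of 12 differentiation keratins 11 were higher (median 4.48), including Krt6a and Krt17, stress keratins of activated keratinocytes, the latter by 11.62, Krt1 by 5.45 and Krt10 by 4.13. Of 13 proteases and inhibitors of cornification 9 were higher and 1, Prss8, was lower. Spink5, an inhibitor of skin kallikreins, was at least 185-fold higher, Klk13 at least 78.2-fold and Asprv1, which processes filaggrin, 6.95 on the log2 scale. Of 8 barrier lipid enzymes 4 were higher and 1 lower, with Alox12b up by 6.08, Abca12 at least 7.53-fold and Cers3 changed by -1.68. Among 7 other genes of the chromosomal complex 3 were higher: Crnn at least 108-fold, Kprp at least 30.9-fold and Pglyrp4 at least 2.47-fold. Of 13 S100 genes of the complex 9 were higher and 2 lower, S100a5 by -5.39 and S100a1 by -2.91, against rises of S100a9 (8.39) and S100a14 (2.40). Of 17 regulators 3 were higher and 1 lower, with a median of 0.22. Among all genes 23.7% were higher and 42.7% were called in either direction, so the regulators were not called more often than genes in general. Fosl1, an AP-1 subunit, was at least 23.7-fold higher, Barx2 changed by 4.56 and Jun by 1.54, while Grhl3, a barrier transcription factor, changed by -1.73.

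Markers of other cell types moved in the same comparison. Of 8 basal urothelial markers 6 were higher, Krt14 by 7.97 and Krt5 by 1.87, and their summed level (log2) was 9.60 to 11.57 in BBN bladders against 7.99 to 8.38 in normal ones. Of 9 luminal markers 8 were lower (median -5.27), Upk2 by -5.81 and Upk1a by -5.27, with summed levels of 4.79 to 7.90 against 9.91 to 10.29. The luminal and basal sums did not overlap between the groups. Epidermal suprabasal markers were higher for 4 of 5 genes (median 3.37), with summed levels of 3.10 to 8.35 against 1.25 to 1.84, and Dsg1a and Dsc1 were not well above background on any normal array. All 3 markers of oesophageal-type squamous epithelium were higher, Crnn, Krt13 (4.84) and Krt4 (2.62). For hair follicle, 2 of 7 listed genes were tested and neither passed. Smooth muscle markers were higher for 6 of 6 genes (median 2.36, summed levels 6.58 to 10.08 against 5.62 to 6.56) and fibroblast markers lower for 4 of 5 (median -2.39, with no BBN summed level reaching the normal range of 8.28 to 8.62). Neutrophil markers were higher for 4 of 6 genes (median 4.56, summed levels 5.56 to 8.30 against 5.22 to 6.27), endothelial ones lower for 1 of 4 and lymphocyte ones higher for 2 of 5. Of all genes 42.7% were called in this comparison, so the endothelial and lymphocyte counts lie near that background. The part of these shifts in the envelope gene differences was not tested.

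Each BBN group was also set against the same 3 normal arrays, so the 7 comparisons share them. In Krt5-Cre 35 of 42 genes were higher (10.6% of all genes), with a median of 8.10. In Upk2-Cre 35 were higher (15.2%), with a median of 7.64. In the Trp53 het group 15 were higher (17.5%) and Ivl was lower, with a median of 3.83. The Krt5-Cre mutants lay between, at 26 higher in R270H (17.1%, median 5.02) and 28 in R172H (17.9%, median 4.80), each with Ivl lower. In Upk2-Cre R270H 18 were higher (10.2%, median 4.76). In Upk2-Cre R172H 13 were higher (11.4%, median 3.42) and Ivl was lower. The Cre controls had the highest medians and Upk2-Cre R172H the lowest. The counts depend on which arrays set the spread: fitting only the arrays compared, 35 were higher in Trp53 het, 34 in Upk2-Cre R270H, 29 in Upk2-Cre R172H and 15 in Krt5-Cre R172H.

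Sprr2d, Sprr2f, Cnfn and Sprr3 were among the genes called higher in all 7 groups. For Sprr2f, measured above background on every array, the change was 8.40 in Krt5-Cre, 7.09 in Upk2-Cre, 5.43 in Trp53 het, 5.80 in Krt5-Cre R270H, 6.84 in Krt5-Cre R172H, 6.77 in Upk2-Cre R270H and 5.37 in Upk2-Cre R172H, each with an SE of 0.79 to 0.94. For Lor the order was Upk2-Cre at 9.94, Krt5-Cre at 8.69, Krt5-Cre R270H at 6.70, Krt5-Cre R172H at 6.59, Upk2-Cre R270H at 6.29, Trp53 het at 5.30 and Upk2-Cre R172H at 4.65. Except for the step from Krt5-Cre to Krt5-Cre R270H, neighbours in that order differ by less than their standard errors of 1.19 to 1.43. The Lce1 genes showed a wide range of counts, given here with the share of all genes. Of 14 Lce1 genes, 13 were higher in Krt5-Cre (10.6%) and in Upk2-Cre (15.2%). In Trp53 het 1 was higher (17.5%), in Krt5-Cre R270H 6 (17.1%) and in Krt5-Cre R172H 9 (17.9%). In Upk2-Cre R270H 3 were higher (10.2%) and in Upk2-Cre R172H 0 (11.4%). There limma gave 3 an unadjusted p under 0.05 (36.9% of all genes). The counts in Trp53 het and Upk2-Cre R172H did not exceed the share of all genes. A difference in counts is no test of a difference between groups.

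Scanner and single arrays moved several of these counts. On the scanner of the normal arrays alone 15 genes were higher in Krt5-Cre R172H and 28 in Upk2-Cre R172H, and no R270H array remained. Krt5-Cre, Upk2-Cre and Trp53 het each kept 1 array there, so no calls are given for them. With scanner as a block the counts were 35 in Krt5-Cre, 35 in Upk2-Cre, 9 in Trp53 het, 9 in Krt5-Cre R270H, 17 in Krt5-Cre R172H, 7 in Upk2-Cre R270H and 17 in Upk2-Cre R172H. Without Krt5-Cre 2 the Krt5-Cre count was 10, and without Upk2-Cre 2 the Upk2-Cre count was 18. Each of those fits left 1 array in its group, and the spread came from the other groups. Without Krt5-Cre R172H 3 the count rose to 34 in its own group and to 23 in Trp53 het. The median over the 42 genes stayed above 0 in each of these fits.

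The Cre control tumours had the highest mean envelope gene levels. Among the 7 BBN group means, the highest was Krt5-Cre for 22 genes and Upk2-Cre for 20, that is for 42 of 42 genes (34.4% of all genes). Both Cre controls took the top places for 35 of 42 genes (8.03% of all genes). The lowest mean was in Upk2-Cre R172H for 28 genes, Trp53 het for 6, Krt5-Cre R172H for 4, Upk2-Cre R270H for 3 and Krt5-Cre R270H for 1. Averaged over the 42 genes, the 4 Cre control arrays stood at 1.92 to 3.76, Trp53 het at -0.89 to 0.11 and the normal arrays at -4.53 to -4.22. The mutant arrays stood at -0.62 to 1.55 in Krt5-Cre R270H, -3.40 to 3.26 in Krt5-Cre R172H, 0.56 to 0.69 in Upk2-Cre R270H and -1.96 to 0.22 in Upk2-Cre R172H. Some Krt5-Cre R172H arrays reached the range of the Cre controls, and no array of the 4 other groups did. The 4 Cre control arrays come from 3 animal codes. Most of the 42 genes rose and fell together across the BBN tumours. Counts over them, here and in the comparisons between BBN groups below, are therefore not independent observations.

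No envelope gene passed the test between BBN groups. For the Krt5-Cre mutants against Krt5-Cre, limma called 0 of 42 genes (0.0115% of all genes), and 6 had an unadjusted p under 0.05, each lower in the mutants (4.80% of all genes in either direction). The median difference was -2.54, against 0.009 over all genes. The smallest p belonged to Sprr2f, at 7.02 and 8.08 in Krt5-Cre against 4.05 to 7.46 in the mutants (-2.08, SE 0.83, limma adjusted p = 0.944). Lce1a1 differed by -4.26 (SE 1.87), with 5 of the 7 mutant arrays well above background. For Flg2 and Rptn all 7 mutant arrays lay below both controls (2.03% of all genes did so). Flg2 was well above background on 0 of the 7 mutant arrays and 1 of the 2 controls, so its order there is near background and no size is given. The basal keratins Krt5 and Krt14 each differed by -0.26 (SE 0.46 and 0.64), and Krt1 by -2.40 (SE 1.33), none past the test. Smooth muscle markers had a median of -1.48 in the same comparison, and their part was not tested. On the scanner of the normal arrays the median was -4.50, with 1 Krt5-Cre array and 2 mutant arrays, Krt5-Cre R172H 3 and 4. No Krt5-Cre R270H array remained, and Krt5-Cre R172H 3 was the lowest BBN array for 28 of the 42 genes. The lone control has no spread of its own, so no calls are given.

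For the Upk2-Cre mutants against Upk2-Cre, limma called 0 of 42 genes (0.00575% of all genes), and 14 had an unadjusted p under 0.05, each lower in the mutants (6.29% of all genes in either direction). The median was -3.00, against -0.09 over all genes. For 26 genes all 5 mutant arrays lay below both controls (9.27% of all genes), among them 18 of 21 Lce genes. Lor was 5.92 and 7.65 in the controls and 0.70 to 3.77 in the mutants, without overlap. Its difference was -4.47 (SE 1.32, limma adjusted p = 0.777). Lce3f differed by -6.18 (SE 1.98, limma adjusted p = 0.777), with 3 of 5 mutant arrays well above background. Flg2 was well above background on 1 of 5 mutant arrays and on both controls, and differed by -2.77 (SE 0.92). Both controls carry 1 animal code, yet their sex-linked transcripts differed. On Upk2-Cre 1 none of the Y-linked genes was well above background, and on Upk2-Cre 2 4 of 4 were. The shared code may therefore not mean a single animal.

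The Trp53 het group, which had neither Cre nor tamoxifen, was set against both Cre control groups. Limma called 0 of 42 genes (0% of all genes), and 28 had an unadjusted p under 0.05, each lower in Trp53 het (4.83% of all genes in either direction). The median was -3.45, against 0.03 over all genes. For 28 genes the 3 Trp53 het arrays lay below the 4 controls (3.17% of all genes), again with 18 of 21 Lce genes among them. Lor, at 2.03 to 2.36 against 4.41 to 7.65, differed by -4.02 (SE 1.19, limma adjusted p = 0.707). Sprr2i differed by -5.08 (SE 1.61, limma adjusted p = 0.763), with 1 of 3 Trp53 het arrays well above background. Flg2 was well above background on 0 Trp53 het arrays and 3 of the 4 controls, which put it at least 1.90-fold lower (limma adjusted p = 0.763). The 6 smooth muscle markers were each lower in value in Trp53 het (median -1.30, Myh11 -1.91, Cnn1 -1.45), none past limma's test, and their part was not tested. Tamoxifen, Cre and the Trp53 allele cannot be told apart in this comparison.

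**Figure D4:**
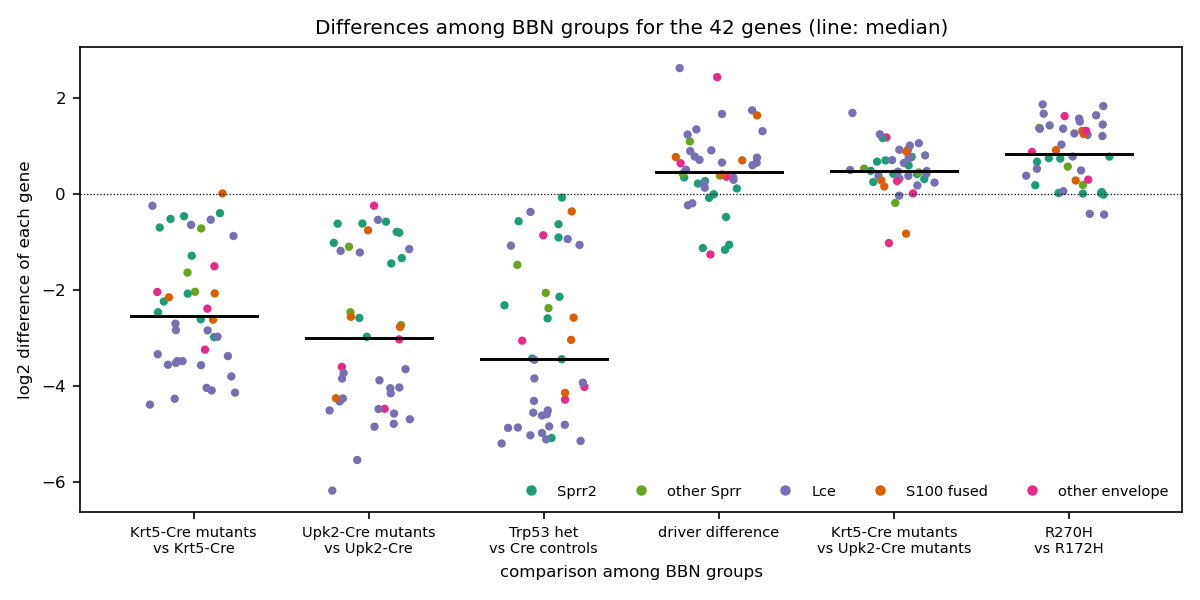
Log2 difference of each of the 42 envelope genes in the 6 comparisons between BBN groups, 1 point a gene coloured by family, with a line at the median. The medians are -2.54 for Krt5-Cre mutants against Krt5-Cre, -3.00 for Upk2-Cre mutants against Upk2-Cre and -3.45 for the Trp53 het comparison with the Cre controls, and 0.47, 0.48 and 0.83 in the 3 others. No gene passed limma's adjusted p of 0.05.

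No envelope gene passed the test between drivers or between alleles. The difference between the drivers in the effect of the mutant allele had a median of 0.47, with 0 genes called by limma (0% of all genes) and 0 at an unadjusted p under 0.05 (3.32%). Lor had the smallest p there, at 2.43 (SE 1.82, limma adjusted p = 0.998). Krt5-Cre mutants against Upk2-Cre mutants had a median of 0.48, with 0 called by limma (0.00575% of all genes) and 0 at an unadjusted p under 0.05 (5.30%). Ivl differed by -1.02 (SE 0.56, limma adjusted p = 0.886). R270H against R172H had a median of 0.83, with 0 called by limma (0% of all genes) and 0 at an unadjusted p under 0.05 (9.81%). The groups overlapped for each of the 42 genes (0.218% and 0.178% of all genes lay apart, higher or lower). The 6 smooth muscle markers were each higher in value in R270H (median 2.08, Myh11 2.58, Cnn1 2.39), none past limma's adjusted test and 6 at an unadjusted p under 0.05, and their part was not tested. Without Krt5-Cre R172H 3 these medians were 1.18, 1.20 and 0.23. Their signs are not settled, since with scanner as a block the allele median was -0.98 and on the scanner of the normal arrays the driver medians were -1.13 and -1.04. A test that misses the threshold with so few arrays does not show that the groups are alike.

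Across the BBN tumours most envelope genes rose and fell with Lor. Over the 17 animal codes, with arrays of 1 code averaged, 41 relations with Lor were computed. Upk2-Cre 1 and 2 were averaged although their sex-linked transcripts differed. With all 19 arrays taken singly, r was 0.944 for Lce1k, 0.793 for Cnfn, 0.426 for Ivl and 0.202 for Tchh. The median Pearson r was 0.865, 26 of 41 were above 0.8 and 4 were at or under 0.5. Lce1k followed Lor most closely (r = 0.940, rho = 0.909, permutation p = 1e-05 for both, the smallest the resamples can give), and without the 2 samples farthest from the Lor median r was 0.919. Within the 11 arrays of the first scanner its r was 0.916 and within the 8 of the second 0.956. Sprr2i (r = 0.938), Lce1g (0.937), Lce1e (0.936) and Hrnr (0.935) came next. Cnfn had r = 0.773 and rho = 0.912, and r = 0.825 without Krt5-Cre R172H 3. Sprr1a, whose level did not pass the test against normal bladder, had r = 0.794, or 0.672 after quantile normalization. Some genes did not follow Lor over all samples. Tchh had r = 0.181 (rho = 0.142, permutation p = 0.486) and Ivl r = 0.443 (rho = 0.478, permutation p = 0.076). Sprr2b had r = 0.447 and Sprr2k 0.471. On the first and second scanner r was 0.104 and 0.382 for Tchh, and 0.395 and 0.754 for Ivl. It was 0.635 and 0.144 for Sprr2b, and 0.665 and 0.178 for Sprr2k. Sprr2g and Sprr2f followed Lor on the first scanner (0.917 and 0.851) and not on the second (0.099 and 0.272). The samples share array scaling and scanner, and these groups differ in their mean Lor level.

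**Figure D5:**
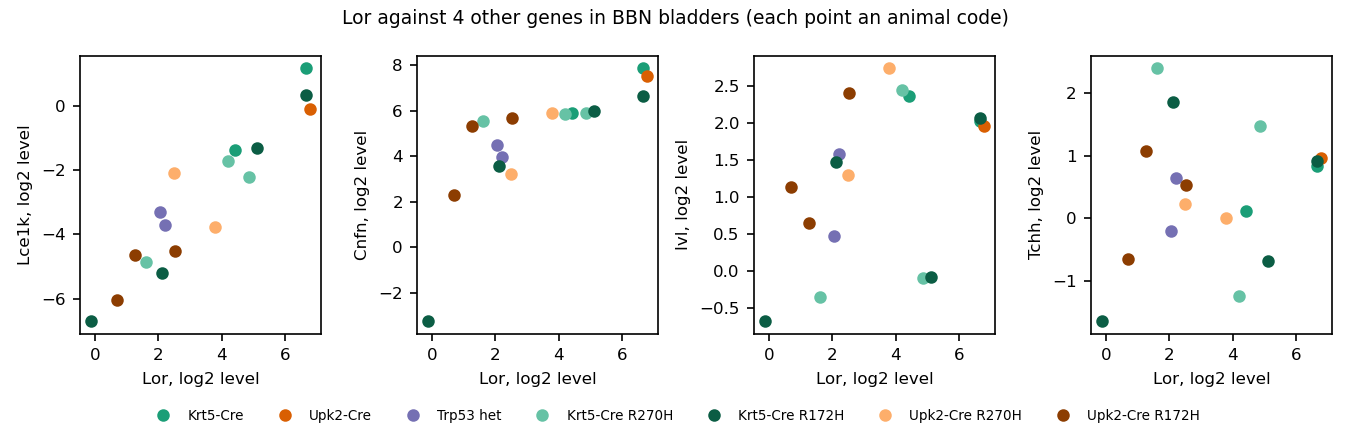
Level of Lce1k, Cnfn, Ivl and Tchh (vertical axes) against the level of Lor (horizontal axis) over the BBN tumours, each level as log2 relative to the array's 75th percentile, 1 point an animal code. Lce1k (r = 0.940) and Cnfn (r = 0.773) rise with Lor, and Ivl (r = 0.443) and Tchh (r = 0.181) are scattered.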

How the data were processed

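RNA of 22 mouse bladder samples was measured on 1-colour Agilent arrays. The authors deposited scanner files with spot intensity values, made with Agilent Feature Extraction 11.0.1.1 per the file headers (9.1 with limma per the submitters' processing notes), and a table of log2 normalized values, whose normalization is not given in the sources used here. Here each intensity was divided by the 75th percentile of its array's unflagged, non-control spots and log2 transformed. Spots of a probe were averaged. Of 56605 probes, 32994 were named through RefSeq accessions with 1 symbol, 0 with several and 23611 with none. The brightest probe stood for a gene. Of 17421 genes well above background on at least 2 arrays, 17404 were tested with limma 3.58.1 (R 4.3.3), fitting 8 group means over all 22 arrays and 14 contrasts. There were 53 to 301 flagged spots and 0 saturated spots an array, and the number of arrays limits the precision. The fit was tested on simulated data for the BBN groups against the normal group. There, of 50 genes given a log2 change of 2, 40 were called, and of 50 given 4, 46. No change was simulated between BBN groups, so those shares do not apply to comparisons between them. Correlations used permutation tests with 100000 resamples. Genes given array by array were the single genes of the set, the 3 Sprr2 and 3 Lce genes with the highest mean level and the widest-ranging gene. Others were the 10 of smallest p against normal bladder, or 3 within BBN. Members, lists and tests were chosen with earlier results of these data known. Replicate numbers do not pair the samples.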

Additional observations from a re-analysis of the deposited data

How the results depend on the processing

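Calls against normal bladder depended on the filter and on single arrays. The deposited table tested 17 of the genes and called 10 higher for all BBN groups, 10 for Krt5-Cre, 10 for Upk2-Cre, 5 for Trp53 het, 6 for Krt5-Cre R270H, 9 for Krt5-Cre R172H, 5 for Upk2-Cre R270H and 5 for Upk2-Cre R172H. Requiring every array above background left 14 genes and called 8, 8, 8, 4, 7, 8, 4 and 4 in the same order. These 2 tables test fewer genes. Averaging arrays that share an animal code left 1 Upk2-Cre sample, so no calls are given for that fit. Fitting only the arrays compared gave 35 for Trp53 het, 15 for Krt5-Cre R172H, 29 for Upk2-Cre R172H and 34 for Upk2-Cre R270H. Scanner as a block gave 9 for Trp53 het, 9 for Krt5-Cre R270H, 17 for Krt5-Cre R172H and 7 for Upk2-Cre R270H. The scanner of the normal arrays gave 15 for Krt5-Cre R172H and 28 for Upk2-Cre R172H. Slide as a random block gave 11 for Upk2-Cre R270H. Except for the filtered tables, the cause was not tested.

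Leaving out 1 array at a time gave 31 to 36 for all BBN groups, 10 to 35 for Krt5-Cre, 18 to 35 for Upk2-Cre, 10 to 23 for Trp53 het, 15 to 31 for Krt5-Cre R270H, 16 to 34 for Krt5-Cre R172H, 8 to 19 for Upk2-Cre R172H and 9 to 26 for Upk2-Cre R270H. It gave 0 in each comparison between BBN groups. The low ends came without Krt5-Cre 2, Upk2-Cre 2, Krt5-Cre R270H 3 or normal 1 or 3 (15 each), Krt5-Cre R172H 1 or 2 or normal 3 (16 each), Upk2-Cre R172H 2 and Upk2-Cre R270H 2. The fits without Krt5-Cre 2, Upk2-Cre 2 or Upk2-Cre R270H 2 left 1 array in that group, with the spread taken from the others. The count for Trp53 het rose to 23 without Krt5-Cre R172H 2 or 3.

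Reversed medians were, for the driver difference, -1.13 on the scanner of the normal arrays, -0.16 with the sex label, and -0.29 to 1.33 leaving out 1 array (-0.26 without Upk2-Cre 2, -0.29 without Krt5-Cre 1); for Krt5-Cre against Upk2-Cre mutants, -1.04; and for R270H against R172H, -0.98. Genes near 0 turned. Sprr1a was 0.13 with the sex label and 0.10 with sex-linked transcripts. Sprr2a2 was -0.18 with quantile normalization, -0.27 in the deposited table, -0.43 as a mean over probes and -0.14 with scanner as a block. Sprr2b was 0.41 and 0.47 with the sex covariates and -0.21 to 0.069 leaving out 1 array, above 0 in 5 fits. Sprr2k was -0.13 with normexp, -0.32 with quantile normalization, -0.33 in the deposited table, -0.0013 with slide, -0.077 with scanner as a block, -0.029 on 1 scanner, -0.042 with shared codes averaged and -0.19 to 0.18 leaving out 1 array, below 0 in 10 fits. With the replicate block, which pairs samples by number only, 36 genes were higher over all BBN groups, Lor changed by 6.81 and Sprr2k by -0.15; same-numbered samples correlated at a median of 0.028 and 9 arrays matched their own number best. The correlation of Lor with Sprr1a was 0.672 with quantile normalization.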
